A study of Drosophila melanogaster with 3 samples.

Results

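The genes described here encode the guidance ligands Slit (*sli*), Netrin-A (*NetA*) and Netrin-B (*NetB*) and their receptors Roundabout 1, 2 and 3 (*robo1*, *robo2*, *robo3*), Frazzled (*fra*) and *unc-5*. They were taken as a family by gene name, at a time when earlier results of these data were known, and all 8 were found by FlyBase identifier among the 17768 genes of the tables. RNA was sequenced from nephrocytes, the large filtering cells that sit beside the fly heart, in 3 low-input libraries of 1 control condition (libraries 1, 2 and 3). The question these genes can answer is therefore which parts of the 2 pathways the adult nephrocyte preparation carries, at what level, and how alike the libraries are; no comparison between conditions is possible.

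All 3 libraries came from adult females that carried *Hand*-GFP together with the *Klf15*-Gal4 driver and UAS-RFP over the CyO balancer (UAS-RFP/CyO), kept on standard food with 6% sucrose at 25 °C. *Hand*-GFP marks heart and pericardial cells, and the driver was built from a piece of the *Klf15* promoter, so the RFP marks the cells in which that piece is active. Cells from many pooled flies were dissected for each library, and large cells carrying both colours were collected by flow cytometry. Polyadenylated RNA was turned into amplified cDNA, and the libraries held 7808930 to 8801238 expected counts, the estimated number of reads per gene summed over genes. Levels are in TPM, transcripts per 1000000 transcripts of a library, which divide reads by transcript length and so allow 1 gene to be compared with another.

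Slit is a secreted protein that binds Robo receptors and repels growing axons from the midline of the nerve cord, and the same pair shapes the embryonic heart tube, where *sli* is made by the cardioblasts that face the lumen. Netrins are secreted, laminin-related proteins that attract axons through Frazzled, the fly counterpart of DCC, and repel them through Unc-5. Both kinds of receptor act on the actin cytoskeleton.

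*NetA* was the leading gene of the set, followed by *robo1*, while the other ligands and the receptors *fra* and *robo3* were at or near 0. Of the 8 genes, 3 (*NetA*, *robo1* and *unc-5*) reached 1 TPM in every library, which is 37.5% of the set against 40.5% of all genes in the tables, so the share was close to the background. *robo2* reached 1 TPM in 2 libraries and missed it in library 2. The libraries thus held 1 netrin ligand with the receptor *unc-5*, and 2 Robo receptors with next to no *sli*.

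**Figure D1:**
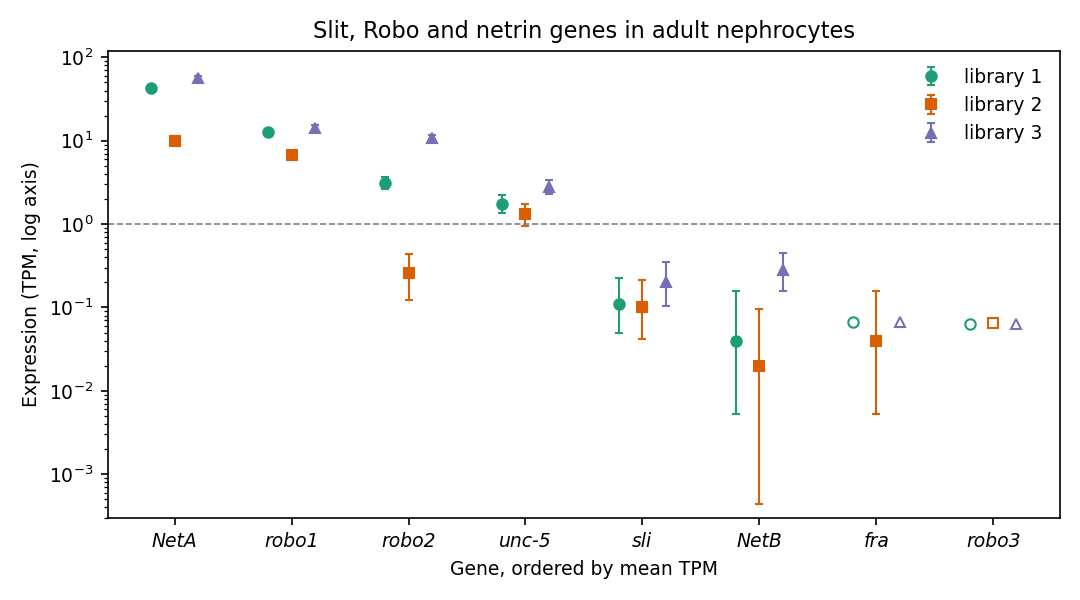
Expression of the 8 guidance genes in libraries 1 (circles), 2 (squares) and 3 (triangles), as TPM on a log axis, with 95% exact Poisson intervals that cover counting error only. Open symbols mark a count of 0 and stand at the TPM of 3 counts, and the dashed line is 1 TPM. *NetA*, *robo1* and *unc-5* lie above the line in every library, and library 2 is the lowest for each of the 4 leading genes.

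Among the ligands, *NetA* (FBgn0015773, chromosome X, 14604012 to 14653928, minus strand) had 43.1, 10.1 and 56.9 TPM in libraries 1, 2 and 3, from 992, 229 and 1302 expected counts. Its mean of 36.7 ± 24.1 TPM (SD, n = 3) ranked 2542 of 17768, in the top 14.3% of genes. Library 2 was the lowest, with a counting interval of 8.80 to 11.4 TPM beside 40.5 to 45.9 TPM in library 1 and 53.8 to 60.1 TPM in library 3, and such intervals leave out the variation between collections and amplifications.

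*NetB* (FBgn0015774, chromosome X, 14686038 to 14749376, minus strand), the second fly netrin, had 2, 1 and 16 expected counts, or 0.04, 0.02 and 0.28 TPM. By counts per effective length, *NetA* was 998-fold, 580-fold and 206-fold higher than *NetB*, where the first and second values rest on 2 and 1 *NetB* counts, with 95% counting intervals of 275 to 8251, 103 to 22988 and 126 to 361. *NetA* therefore made up 99.9%, 99.8% and 99.5% of the netrin TPM. The paralogs lie on the same strand with 32109 bases between them, and the gene in that gap, *CG5321*, had 3.61, 5.66 and 5.26 TPM.

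*sli* (FBgn0264089, chromosome 2R, 15869495 to 15922118, minus strand), which encodes the Robo ligand, had 8, 7 and 12 expected counts, or 0.11, 0.10 and 0.20 TPM. These values were low but above the 0.0429 to 0.0503 TPM that 3 counts represent for this long transcript. The counting interval of library 2 (0.0417 to 0.214 TPM) reached below its level of 3 counts, 0.0444 TPM. By counts per effective length, *robo1* was 110.1-fold, 64.6-fold and 70.2-fold higher than *sli* in libraries 1, 2 and 3, with counting intervals of 55.5 to 256, 31.0 to 162 and 39.9 to 137. The ligand transcript was thus scarce in libraries in which the receptor transcript was readily counted, and bulk libraries do not show whether both came from the same cells.

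Among the receptors, *robo1* (FBgn0005631, chromosome 2R, 22692524 to 22700970, minus strand), the main receptor of Slit at the nerve cord midline, had 12.6, 6.70 and 14.1 TPM from 591, 310 and 660 expected counts. Its mean was 11.1 ± 3.92 TPM (SD, n = 3), rank 4864. Libraries 1 and 3 were close, with overlapping counting intervals of 11.6 to 13.6 and 13.1 to 15.2 TPM, and library 2 (5.97 to 7.49 TPM) lay below both. By the mean transcript length that RSEM reported, the longer of the *robo1* transcripts (6698 bases, against 6392 for the shorter) took 16.6%, 6.71% and 16.1% of the gene's transcripts. These shares carry no error estimate, and the same calculation for *unc-5*, from fewer counts, gave 0%, 0% and 65.9%.

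*robo2* (FBgn0002543, chromosome 2L, 1380086 to 1420453, minus strand), a Robo family member that acts in lateral axon positioning as well as midline crossing, was the most variable gene of the set. It had 3.10, 0.26 and 10.7 TPM from 139.81, 11.42 and 479.44 expected counts, with a mean of 4.67 ± 5.38 TPM (SD, n = 3). The SD was larger than the mean, and the counting intervals, which leave out variation between collections, were 2.61 to 3.66, 0.123 to 0.440 and 9.72 to 11.7 TPM. The mean was 6.88 TPM without library 2 and 1.68 TPM without library 3. *robo1* made up 80.2%, 96.3% and 57.0% of the Robo TPM, and the rest was *robo2*.

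Some of the *robo2* reads could not be told apart from those of overlapping noncoding RNAs. The RNA *lncRNA:CR44898* runs on the same strand and shares 1241 of its 1244 exonic bases with *robo2*, none of them coding, and the RNA *asRNA:CR44897* runs on the opposite strand and shares 1422 of 1586. With the reads of both given to *robo2*, an alternative chosen after seeing the data, the counts became 160, 36 and 531, whole numbers within 0.005. The level of *robo2* was then 3.54, 0.805 and 11.8 TPM, and the added reads were 12.6%, 68.3% and 9.71% of the total. The order of the libraries was the same, library 2 stayed under 1 TPM, and most of its reads at this locus had been given to the noncoding RNAs.

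*robo3* (FBgn0041097, chromosome 2L, 1256417 to 1296596, plus strand), which lies 83489 bases from *robo2*, had a count of 0 in all 3 libraries. A count of 0 was given a limit of 3 counts, or 0.0637, 0.0643 and 0.0640 TPM. The measured level of *robo1* was 197-fold, 104-fold and 221-fold above that limit. That of *robo2* was 48.6-fold, 3.97-fold and 167-fold above it. These ratios leave out the counting error of *robo1* and *robo2*. In library 2 the counting interval of *robo2* began at 0.123 TPM, and the two-sided 95% interval of *robo3* ended at 0.0791 TPM.

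*unc-5* (FBgn0034013, chromosome 2R, 15340472 to 15368300, plus strand), the receptor for repulsion by netrins, had 1.76, 1.32 and 2.78 TPM from 64, 47.26 and 103 expected counts. Its mean was 1.95 ± 0.75 TPM (SD, n = 3), rank 7110, and the counting interval of library 2 (0.961 to 1.74 TPM) reached below 1 TPM. *unc-5* was thus low but present in every library. Its last 227 exonic bases, none coding, are shared with *Pms2*, a DNA mismatch repair gene on the opposite strand with 1.75, 2.18 and 2.61 TPM, and in library 2 only the sum of both genes (93 counts) was whole.

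*fra* (FBgn0011592, chromosome 2R, 12529053 to 12564184, plus strand), the receptor for attraction by netrins, had 0, 2 and 0 expected counts. The value in library 2 was 0.04 TPM, and the limit of 3 counts given to a count of 0 was 0.0670 TPM in library 1 and 0.0673 TPM in library 3. The measured level of *unc-5* was 26.4-fold above that limit in library 1 and 41.3-fold above it in library 3, its own counting error left out. In library 2 *unc-5* was 29.8-fold higher than *fra* (from 2 *fra* counts, counting interval 7.77 to 252). Of the pair *fra* and *unc-5*, *unc-5* was therefore the one that these libraries held.

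The order of levels was *NetA*, *robo1*, *robo2*, *unc-5*, *sli*, *NetB*, *fra* and *robo3* by mean TPM, and not every neighbour in that order was separated. Ratios were taken within each library as log2 of TPM + 0.1 for all 28 pairs of genes. In 24 pairs the same gene was higher in 3 of 3 libraries, and 4 pairs were mixed; pairs with *fra* or *robo3* set the other gene against a count at or near 0. With 3 libraries, an exact permutation test that flips the signs of the ratios (two-sided) cannot give a p under 0.25, and these 24 pairs had that smallest p (0.292 after Benjamini-Hochberg adjustment over 28 pairs), so no pair could pass a threshold of 0.05 in this design.

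*NetA* was 3.42-fold, 1.50-fold and 4.03-fold higher than *robo1* in libraries 1, 2 and 3, a mean log2 ratio of 1.45 ± 0.76 (SD, n = 3). *robo1* was 7.15-fold, 5.08-fold and 5.08-fold higher than *unc-5*, a log2 ratio of 2.44 ± 0.28, which was the steadiest among the 4 leading genes. *robo1* was 4.06-fold, 25.8-fold and 1.32-fold higher than *robo2*, a log2 ratio of 2.21 ± 1.93. The receptors *robo1* and *unc-5* thus kept their proportion across libraries, while the proportion of *robo1* to *robo2* did not hold.

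*robo2* and *unc-5* could not be ordered. *robo2* was 1.76-fold and 3.83-fold the level of *unc-5* in libraries 1 and 3 but 0.197-fold in library 2, and the log2 ratio of 0.23 ± 2.00 (SD, n = 3) was smaller than its spread (exact sign-flip permutation test, p = 1, 1 after adjustment). The sign turned when library 1 (-0.04) or library 3 (-0.60) was left out, and without library 2 the ratio was 1.34. The pairs *sli*/*NetB* and *NetB*/*fra* were mixed as well (adjusted p = 0.538 each, exact permutation test), and *fra*/*robo3* rested on 2 counts.

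**Figure D2:**
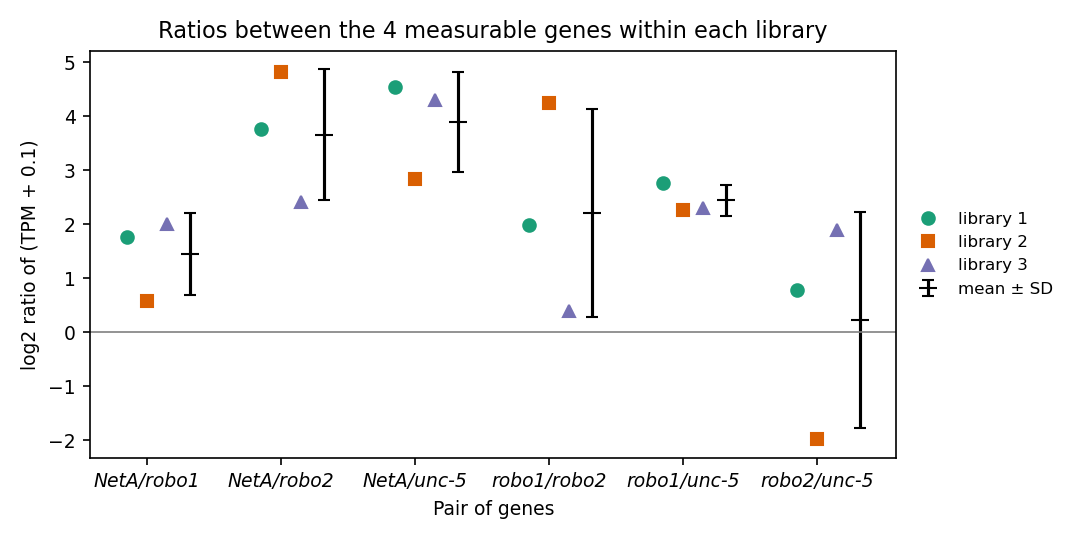
Log2 ratios of TPM + 0.1 between the 4 measurable genes within each library (circles, squares and triangles for libraries 1, 2 and 3), with the mean and SD over the 3 libraries in black. The *robo1*/*unc-5* ratios lie between 2.26 and 2.77, whereas *robo2*/*unc-5* spans from -1.98 to 1.90 and crosses 0.

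The ligands made up 71.3%, 55.0% and 67.6% of the summed TPM of the 8 genes, 64.6 ± 8.5% on average (SD, n = 3), and nearly all of it was *NetA*. That summed level was 60.7 TPM in library 1, 18.5 TPM in library 2 and 84.9 TPM in library 3. Counted in reads rather than TPM, the ligand share averaged 48.8%, because the *NetA* transcript (3279 bases on average) is shorter than those of the receptors. In library 2 *NetA* even had fewer counts than *robo1* (229 against 310) while its TPM was higher.

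The libraries did not carry these genes at equal levels. *NetA*, *robo1* and *unc-5*, the genes detected in every library, were each lowest in library 2 and highest in library 3, an order that 32.2% of all detected genes shared, and *robo2* had the same order. On the log2(TPM + 0.1) scale, library 2 differed from the mean of libraries 1 and 3 by -4.03 for *robo2*, -2.29 for *NetA*, -0.98 for *robo1* and -0.70 for *unc-5*, beside a median of -0.13 over the 7193 detected genes. With the reads of the overlapping noncoding RNAs given to *robo2*, its difference was -2.86, and 25 genes (0.325%) rather than 13 had a wider range. The range of log2(TPM + 1) over the libraries was wider than that of *robo2* in 13 (0.169%) and wider than that of *NetA* in 77 (1.00%) of the 7685 genes with a mean of at least 1 TPM. It was wider than that of *robo1* in 19.1% and of *unc-5* in 33.4% of them, so these receptors varied like many other genes.

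Transcript length moved with the difference of library 2. Across detected genes the log2 ratio of library 2 to libraries 1 and 3 fell with length (Spearman's rho = -0.56 across genes, which are not independent replicates), and the 4 leading genes all have long transcripts. After the trend on length was removed from each library, *robo1* stood at -0.06 and *unc-5* at 0.18, next to a median of 0.01 over the detected genes. *NetA* still stood at -1.78 and *robo2* at -3.11, or -1.94 with the overlapping reads. *robo1* and *unc-5* thus lay near the median of all detected genes once length was allowed for, and *NetA* and *robo2* did not. The part of length in the single values was not tested further.

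Markers of heart cells were among the genes with the same order as *NetA* and *robo2*, which 32.2% of all detected genes shared. Of 5 transcription factors of cardioblasts, the contractile cells of the heart tube, 4 were detected, and each was lowest in library 2 and highest in library 3. The leading one, *H15*, had 51.8, 16.5 and 72.9 TPM, and *tin*, *mid* and *tup*, named after their values were seen, followed it, while *svp* had at most 0.11 TPM. Their summed level was 78.5, 27.2 and 112.1 TPM, and their median log2 ratio for library 2 was -1.74, or -1.56 with the length trend removed.

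The contractile genes of muscle and heart, all 10 of them detected, 9 in that order (*bt*, named after its values were seen, was lowest in library 1) and led by the myosin light chain gene *Mlc2*, summed to 5806, 3031 and 9822 TPM, with a median of -1.17 (-1.16 with the trend removed). The same order held in 3 of 3 detected glia genes, 4 of 4 netrin effectors, 9 of 14 Robo effectors and 2 of 2 guidance adhesion genes. It also held in 3 of 5 receptor tyrosine phosphatases, 3 of 7 Slit and Robo partners, 2 of 4 hemocyte genes and 1 of 2 ephrin genes. None of 6 semaphorin and plexin genes had it, nor the 1 detected gene on each of the Wnt5 and fat body lists. None of the 8 nephrocyte genes had it either, but 3 of them were lowest in library 2. The part of heart muscle RNA in the levels of *NetA* and *robo2* was not tested. In a bulk sample, fewer cells of a type and less RNA per cell cannot be told apart.

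**Figure D3:**
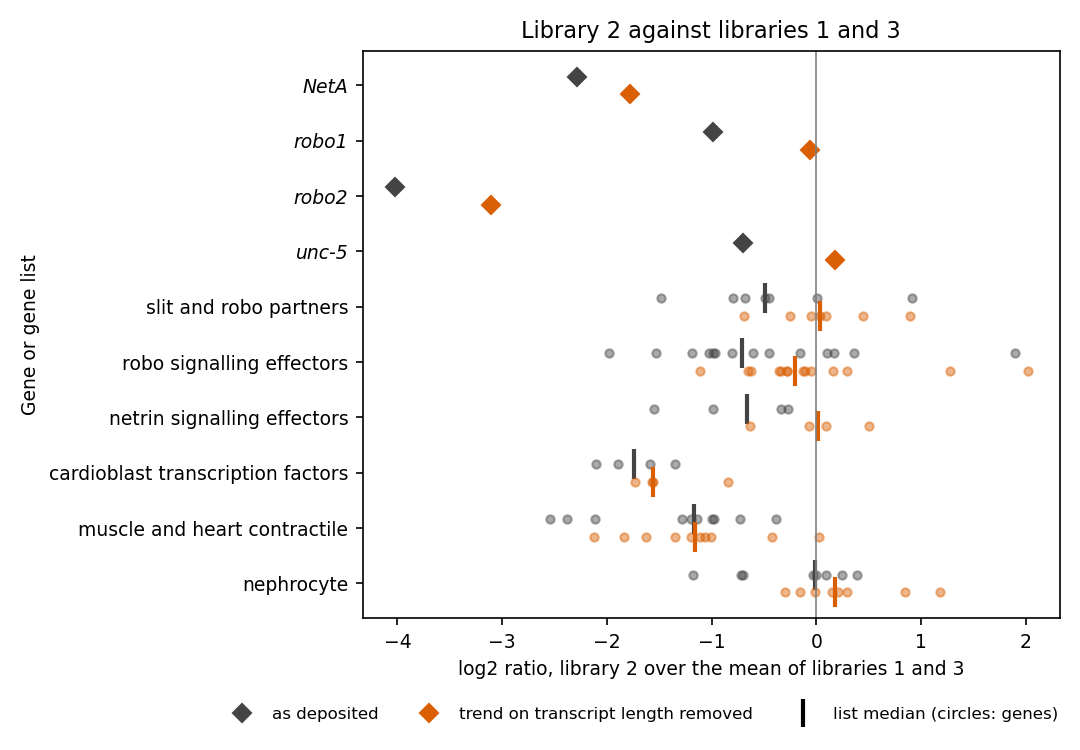
Log2 ratio of library 2 over the mean of libraries 1 and 3, from TPM + 0.1, for the 4 measurable guidance genes (diamonds) and for the detected genes of 6 lists (circles, with the list median as a bar), as deposited in grey and with the trend on transcript length removed in orange. *robo1* and *unc-5* move to near 0 after the adjustment, whereas *NetA* stays at -1.78 and *robo2* at -3.11, below the medians of the 6 lists plotted.

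The other marker lists place these levels in the sample. All 8 nephrocyte genes were detected, led by *Amnionless*, a partner of the endocytic receptor Cubilin, at 5405, 6474 and 5504 TPM. Their sum was 11737, 12175 and 10857 TPM, highest in library 2, and was mostly *Amnionless* and *Hand*. Of the 8, 3 were lowest in library 2. They were *sns* (153, 66.5 and 148 TPM), *kirre* (45.9, 26.9 and 43.0 TPM) and *pyd* (243, 146 and 232 TPM). These and *Hand* were named after their values were seen. None of 8 neuron genes was detected, and 3 of them were at 0 in every library. Their sum was 1.01 to 1.98 TPM, below *NetA* by itself in every library. Most of that sum was *elav*, which had 1.23, 0.87 and 1.95 TPM and missed 1 TPM in library 2 alone. Of the glia list 3 of 6 were detected, led by the sodium pump subunit gene *nrv2*, while the defining gene *repo* had at most 0.15 TPM.

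Of the hemocyte list 4 of 8 were detected, led by the scavenger receptor gene *crq*, with *eater* at 0 and *Hml* at most 0.01 TPM. The others detected were *srp* (150, 55.5 and 158 TPM), *ush* (96.4, 43.7 and 111 TPM) and *He* (11.6, 4.31 and 4.03 TPM). Of these, *srp* and *ush* were lowest in library 2 and highest in library 3. *Obp99b* was the 1 gene of 5 detected on the fat body list, at 8.73, 12.8 and 299.0 TPM, and *Lsp2* and *Fbp1* were at 0. Neither 4 trachea genes (sum 1.08 to 5.80 TPM) nor 4 ovary genes (sum at most 0.25 TPM) were detected. The trachea gene *btl* had 1.67, 0.38 and 5.23 TPM and missed 1 TPM in library 2 alone.

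Over 8 lists of partners, effectors and related guidance genes, 41 of 58 entries (70.7%) reached 1 TPM in every library, beside 40.5% of all genes in the tables. The lists were put together with earlier results of these data known, so that share is a description of these entries. Of 10 genes that act on Slit or Robo, 7 were detected. *Sdc*, the heparan sulfate proteoglycan Syndecan that helps Slit signal, had 381, 237 and 290 TPM, the highest of that list. The glypican gene *dally* averaged 13.5 ± 8.10 TPM, and the other glypican gene, *dlp*, averaged 0.24 ± 0.16 TPM (SD, n = 3 each).

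*comm* encodes Commissureless, which keeps Robo1 off the surface of commissural axons by sorting it to endosomes. It had 27.7, 27.5 and 27.0 TPM, so that *comm* was above *robo1* in every library and at nearly the same level throughout. Its relative *comm2* had 5.39, 12.8 and 8.45 TPM, highest where *robo1* was lowest, and *comm3* had a count of 0 in all libraries. *Nedd4*, a ubiquitin ligase that binds Commissureless, averaged 44.9 ± 12.0 TPM (SD, n = 3).

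*Dg*, or Dystroglycan, whose mammalian counterpart binds Slit, averaged 33.5 ± 12.2 TPM (SD, n = 3). Of the proteases on the list, *tok*, a Tolloid-type enzyme, averaged 5.17 ± 0.91 TPM and was detected. *kuz*, whose product can cleave Robo1, had 0.50, 0.10 and 0.49 TPM and was not detected.

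Of 15 genes for effectors of Robo signalling, 14 were detected, among them the kinase gene *Pak* (88.4 ± 20.8 TPM) and the actin regulator *capt* (73.9 ± 17.3 TPM; SD, n = 3 each). Only *Gef64C* was at 0 in every library. Of 7 genes for netrin effectors, 4 were detected, namely the kinase genes *Src42A* (77.3 ± 11.4 TPM) and *Src64B* (49.0 ± 5.87 TPM), *pico* (21.0 ± 8.06 TPM) and *mim* (13.9 ± 6.99 TPM). *Dscam1*, on the same list and named after its values were seen, had 0.96, 0.73 and 1.48 TPM and was not detected. These effectors serve many receptors, and the values do not tie them to the guidance genes.

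Other guidance families had members at or above the level of *robo1*. *Eph*, the only fly Eph receptor, averaged 45.2 ± 6.18 TPM and its ligand *Ephrin* 18.8 ± 2.51 TPM. Of 8 semaphorin and plexin genes 6 were detected, led by *Sema1b* (23.1 ± 5.61 TPM) and the receptor gene *PlexA* (22.1 ± 3.65 TPM). Both members of the ephrin pair, and both ligands and receptors of the semaphorin family, were therefore detected in all 3 libraries, whereas *sli* was not.

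Of 6 receptor tyrosine phosphatases 5 were detected, led by *Ptp69D* (39.9 ± 6.14 TPM) and *Ptp52F* (28.8 ± 5.63 TPM). Of 4 genes for Wnt5 and its Derailed-type receptors only *dnt* was detected (25.9 ± 2.28 TPM). Of 6 adhesion molecules 2 were detected, *caps* (149 ± 35.7 TPM) and *Nrg* (45.7 ± 14.4 TPM). *Wnt5* itself had at most 0.11 TPM.

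**Figure D4:**
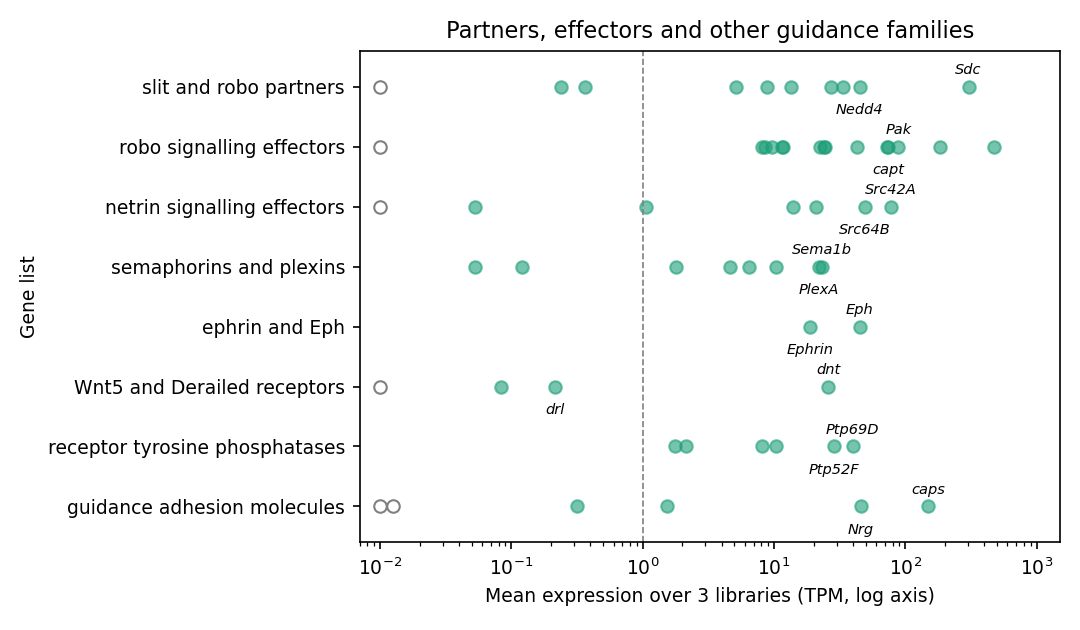
Mean expression over 3 libraries of each gene on 8 lists of partners, effectors and other guidance families, as TPM on a log axis, with 2 of the higher genes of each list named. Open circles at the left edge are genes at 0 in every library, and the dashed line is 1 TPM. Robo effectors are the longest list, with 14 of 15 genes detected, and the ephrin list had 2 of 2.

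The genes whose levels were nearest to *NetA* over the 3 libraries, by the root mean square difference in log2(TPM + 1), were *Patronin*, *Proc-R* and *Pka-C3*. *Patronin*, which encodes a protein that protects microtubule minus ends, had 40.5, 11.8 and 51.4 TPM, a difference of 0.15. *Proc-R*, the receptor gene for the neuropeptide proctolin, had 36.6, 11.8 and 56.8 TPM, and *Pka-C3*, a gene for a protein kinase A-like catalytic subunit, had 35.5, 11.3 and 55.7 TPM, a difference of 0.18 each. Likeness over 3 libraries is a description of these libraries and says nothing of shared control.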

How the data were processed

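Reads from 3 libraries of sorted adult nephrocytes were mapped by the authors with STAR 2.7.5c and quantified with RSEM 1.3.3 on FlyBase annotation 6.28. For the strand setting and for read filters, the sources used here give nothing. The authors deposited expected counts, estimated by RSEM for each gene and left without normalization. They also deposited RSEM's TPM, which adds up to 1000000 per library. FPKM was not used. Transcript lengths are those the authors deposited, averaged by RSEM over isoforms.

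Gene symbols were matched for 17671 of 17768 identifiers. Coordinates and overlaps are from BDGP6.54 (Ensembl release 115), which has the same Release 6 coordinates. Sequences were not used here. Detection means at least 1 TPM in each of the 3 libraries. Ratios of log2(TPM + 0.1) within a library were tested by flipping their signs in an exact permutation test (two-sided, Benjamini-Hochberg adjusted over 28 pairs). Intervals are 95% exact Poisson (for ratios of 2 counts, exact binomial) and, like the floor of 3 counts, cover counting error only, since amplified reads without molecular identifiers are not independent molecules. The paper describes 3 collections of flies, so the spread includes dissection, sorting and amplification. Length trends were removed by lowess (fraction 0.3), tested on simulated data. Named genes are the 8 members, the 2 to 4 highest detected genes of each list, all partners of Slit and Robo, genes overlapping or next to a member, the leading gene of each marker list and the 3 genes nearest to *NetA*. Some higher genes of the Robo effector list are not reported here. Other markers were named after their values were seen. The members and lists were chosen with earlier results of these data known. Alternatives were other thresholds, pseudocounts, CPM, medians, TPM without 155 mitochondrial and ribosomal RNA genes, edgeR 4.0.16 TMM and DESeq2 1.42.0 scaling, and each replicate left out. The software was Python 3.11.15 with statsmodels 0.14.6, scipy 1.17.1, pandas 2.3.3 and numpy 2.4.6, and R 4.3.3.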

Additional observations from a re-analysis of the deposited data

How the results depend on the processing

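The number of guidance genes detected was 3, and it was 1 at a threshold of 10 TPM, 3 to 4 with each replicate left out and 4 at 10 expected counts; *robo2* is the gene gained without library 2. The ligand share of 64.6% was 48.8% in expected counts, and 61.3% to 69.4% with each replicate left out. Of 169 alternative log2 ratios, 2 reversed, *robo2*/*unc-5* without library 1 (-0.04) and without library 3 (-0.60), and the cause was not tested; *fra*/*robo3* was 0 without library 2 and had no direction. The *robo2*/*unc-5* ratio was 1.34 without library 2, and 0.79 with reads of the overlapping noncoding RNAs added. The mean level with each replicate left out was 1.68 to 6.88 TPM for *robo2* and 26.6 to 50.0 TPM for *NetA*. In CPM, without length correction, the *NetA*/*robo1* log2 ratio was 0.43 in place of 1.45 (exact permutation test, p = 0.5). The library 2 ratio of *unc-5* became 0.18 when the length trend was removed; TMM and DESeq2 scaling moved the median of detected genes to 0.06 and 0.03 and kept the direction of *NetA*, *robo1*, *robo2* and *unc-5*. No paired analysis was possible because the series holds 1 group. Depth limits *sli*, *NetB*, *fra* and *robo3*, with 0 to 16 counts a library, where a level under about 3 counts was not detectable.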
